A study of Mus musculus with 6 samples.

Results

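The 39 Hox genes of the mouse were described in cultured bone marrow stromal cells, in control cultures and in cultures fed apoptotic thymocytes. They were found by their symbols, Hox followed by a cluster letter from a to d and a number, and made up 39 of the 53735 features of the deposited count table. The cells came from wild-type mice, and the labels give neither age nor sex. Marrow from tibiae, femora and pelvic bones was combined, depleted of haematopoietic and endothelial cells, sorted for CD51 and expanded at low oxygen for a small number of passages. In the fed group (3 libraries) the cultures received dye-labelled apoptotic thymocytes from mice for 24 h, and label-positive cells were sorted. In the control group (3 libraries) the cultures received no thymocytes and were also sorted. Fed and control cells thus differ in exposure to thymocytes and in selection for the label, and the parts of these cannot be told apart. Words such as rose, fell and change below describe fed against control libraries only. The labels do not say whether the libraries of a group came from separate animals or cultures, so each p-value speaks to the spread among the libraries alone, and that spread may be technical.

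Hox genes encode transcription factors with a homeodomain, a DNA-binding fold, and lie in 4 clusters (a, b, c and d) that arose by duplication of an ancestral cluster. Genes with the same number in different clusters are paralogues. Along each cluster, low numbers act towards the head and high numbers towards the tail of the body axis and the tip of the limb. Mesenchymal cells of adult bone and skin keep a pattern of Hox expression that reflects where in the body they came from, and in the limb the genes of groups 9 and 10 are known for the thigh segment, group 11 for the shank and group 13 for the foot. The bones of the hind limb and pelvis were combined here, so a level cannot be assigned to a single bone. Total counts per library lay between 19069074 and 22410047, with similar depth in both groups, and Hox genes held between 4902 and 6000 counts per library, which is 0.0253% to 0.0268% of all counts.

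Control cells expressed a broad but uneven set of Hox genes, led by Hoxc10, Hoxa10, Hoxc13, Hoxc12 and Hoxb9. Taking a gene as expressed at 1 CPM or more in each of the 3 control libraries (CPM are counts per 1000000 of the scaled library total), 25 of 39 Hox genes were expressed. They were 10 of 11 in the a cluster, 6 of 10 in the b cluster, 8 of 9 in the c cluster and 1 of 9 in the d cluster. Levels of different genes were compared as CPM per kilobase of merged exon. On this scale the c cluster held 52.4% to 54.6% of the summed Hox level in the control libraries, the a cluster 30.9% to 34.8%, the b cluster 10.6% to 11.9% and the d cluster 2.10% to 2.59%. Groups 9 to 13 together held 71.2% to 74.1%, groups 4 to 8 held 21.3% to 23.6% and groups 1 to 3 held 4.43% to 5.19%.

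**Figure D1:**
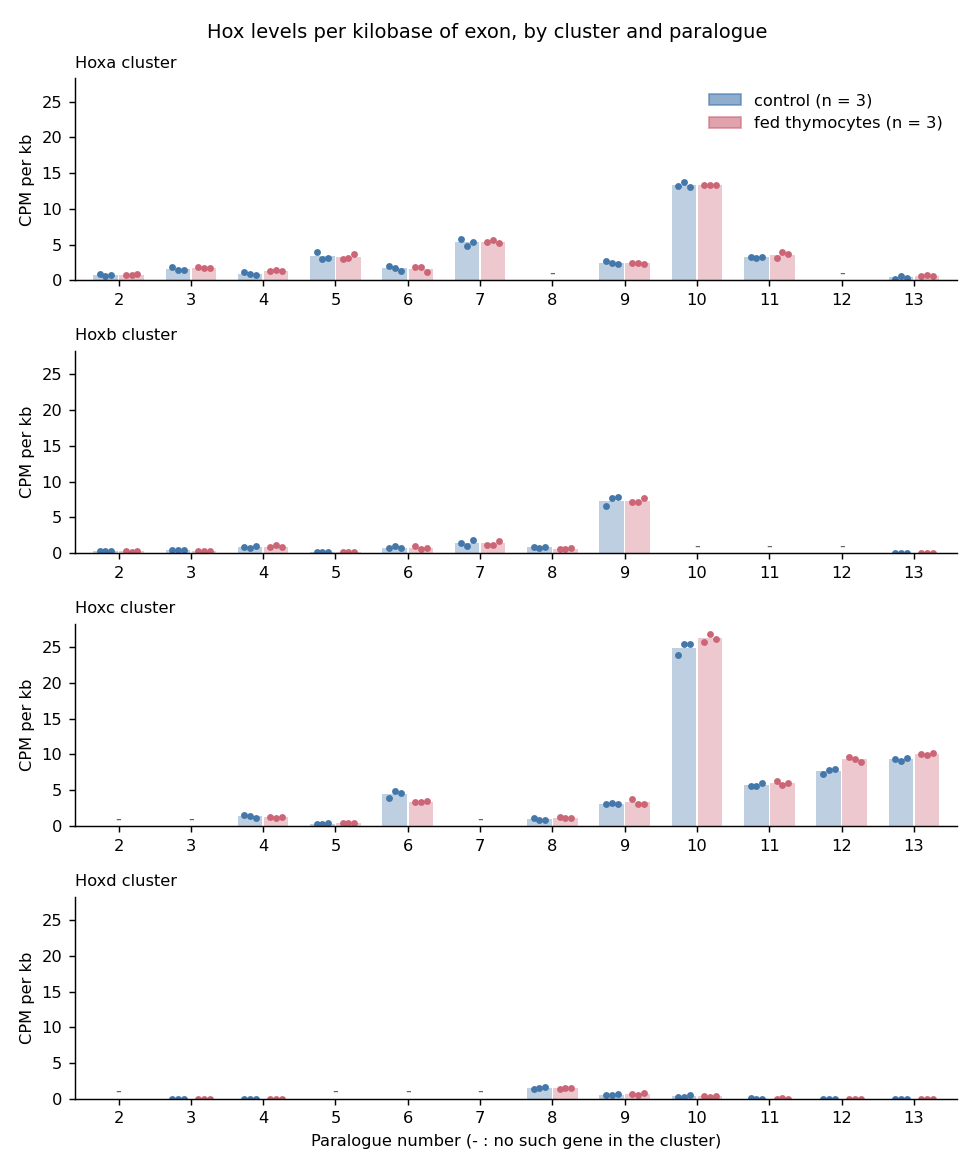
Level of each Hox gene in CPM per kilobase of merged exon (y axis) by paralogue number from 2 to 13 (x axis), with a panel for each cluster. Bars are means of 3 libraries, points are libraries, blue is control and red is fed, and a dash marks a number that the cluster lacks. The tallest bars are Hoxc10 and Hoxa10, the highest gene of the d cluster, Hoxd8, has a control mean of 1.52, and blue and red bars have nearly the same heights.

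Group 10 stood highest. Hoxc10 (chromosome 15, 102966796 to 102971893, GRCm38) had 45.6, 48.5 and 48.7 CPM in the control libraries and 49.2, 51.3 and 49.8 in the fed libraries. Its control level of 24.9 ± 0.892 CPM per kilobase (SD, n = 3) was the highest of the 39 and made up 23.2% of the summed Hox level. Hoxa10 (chromosome 6, 52231197 to 52240854) followed with 13.4 ± 0.365 CPM per kilobase, and its paralogue Hoxd10 had 0.335 ± 0.118. Per kilobase, Hoxc10 was above Hoxa10 in every library. The genes of this group take part in patterning the thigh and lower spine.

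The next places were taken by Hoxc13 (9.32 ± 0.202 CPM per kilobase), Hoxc12 (7.70 ± 0.410), Hoxb9 (7.36 ± 0.703), Hoxc11 (5.72 ± 0.213), Hoxa7 (5.30 ± 0.535) and Hoxc6 (4.45 ± 0.512). Hoxc12 and Hoxb9 lay within their spread of each other, as did Hoxc11 and Hoxa7. Hoxa11, a gene of the shank and forearm, had 3.20 ± 0.102 CPM per kilobase, and its paralogue Hoxd11 had only 1 to 4 counts in each library. Group 13 was split: Hoxc13, known from hair and nail, was the third highest Hox gene, Hoxa13, a gene of the foot and hand, had 0.419 ± 0.227 CPM per kilobase, and Hoxb13 and Hoxd13 had no count. The exon lengths are those of the full GENCODE M21 annotation. With its basic transcript set 8 of the 10 highest genes were shared, Hoxc10, Hoxa10, Hoxc13, Hoxc12 and Hoxb9 held the same first 5 places, and Hoxc6 moved from place 8 to place 6.

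At the front end of the clusters levels were low. Hoxb1 had no count and Hoxd1 at most 1 count in a library. Hoxa2 had 1.09 to 1.53 CPM and Hoxb2 0.880 to 0.948. Hoxa3 had 8.78 to 11.5 CPM, Hoxb3 1.63 to 1.99, and Hoxd3 at most 1 count. In group 4, Hoxc4 was at 2.95 to 3.85 CPM, Hoxb4, which is best known from blood stem cells, at 1.89 to 2.42, Hoxa4 at 1.11 to 1.85, and Hoxd4 had no count. Hoxa5, a gene of the lung and shoulder girdle, reached 5.48 to 7.51 CPM, while Hoxb5 stayed at 0.369 to 0.520 and Hoxc5 at 0.945 to 1.21. In groups 3, 4 and 5 the a cluster or the c cluster gave the highest count.

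The d cluster was nearly silent. Hoxd8 was its only expressed gene, at 3.66, 4.16 and 4.69 CPM in the control libraries. Hoxd9 (0.992 to 1.32 CPM) and Hoxd10 (0.425 to 0.843 CPM) were low, and Hoxd12, Hoxd13 and Hoxd4 had no count in any of the 6 libraries. Hoxb1 and Hoxb13 also had none, so 5 Hox genes were at 0 throughout. A count of 0 allows up to 3 counts, which is 0.132 to 0.158 CPM in these libraries, and this limit covers counting error only. Hoxd3 and Hoxd4 share over 50% of their merged exon bases with other annotated genes on the same strand (62.4% and 52.3%); how reads on shared bases were counted is not stated in the labels.

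The sequences around the starts of a gene that these cells transcribe and of one with no count are shown side by side. The windows run from 250 bases before to 50 bases after the start, on the gene's strand (RefSeq, GRCm38.p6), with each CG dinucleotide in capitals, the letters that DNA methylation acts on. Hoxa10 (chr6:52240805-52241104, minus strand) was the second highest gene, and Hoxd13 (chr2:74667975-74668274, plus strand) had no count.

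Hoxa10: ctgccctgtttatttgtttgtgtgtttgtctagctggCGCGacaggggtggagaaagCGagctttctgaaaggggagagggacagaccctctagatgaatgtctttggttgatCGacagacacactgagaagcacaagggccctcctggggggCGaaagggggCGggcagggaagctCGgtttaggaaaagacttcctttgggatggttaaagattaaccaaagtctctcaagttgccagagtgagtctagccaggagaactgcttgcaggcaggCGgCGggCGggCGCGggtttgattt

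Hoxd13: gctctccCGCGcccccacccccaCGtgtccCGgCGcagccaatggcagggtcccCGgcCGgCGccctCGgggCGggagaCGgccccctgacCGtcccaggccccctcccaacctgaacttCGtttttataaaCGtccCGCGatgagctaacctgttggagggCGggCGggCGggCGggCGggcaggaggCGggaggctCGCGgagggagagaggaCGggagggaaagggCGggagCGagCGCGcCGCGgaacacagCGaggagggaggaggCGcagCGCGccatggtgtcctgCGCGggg

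The window of Hoxa10 holds 12 CG and that of Hoxd13 holds 37. A second listed start of Hoxa10 (chr6:52234890-52235189) holds 21. Of the 39 genes, 22 had a listed window, 24 windows in all. Their median was 14.5 CG, against 7 over all 32851 windows of the same length, of which 94.6% hold at least 1 CG. The 13 windows of expressed genes held 4 to 29 CG with a median of 13. The 11 windows of genes that were not expressed held 4 to 45 with a median of 20, so these listed windows were not poorer in CG. Most of the 13 belong to the a cluster and most of the 11 to the d cluster, and Hoxc4 alone stands for the c cluster. The genes that were not expressed include some with counts below the limit, such as Hoxd9, Hoxd10 and Hoxa13. The letters TGATTNAT, bound by Hox proteins together with Pbx, were searched on both strands and were found in 2 of the 24 windows, those of Hoxa2 and Hoxd11, and in 3.22% of all windows. These matches describe the letters only.

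Few Hox genes were called as changed in fed cells. Fed was compared with control by edgeR's quasi-likelihood test over 13092 genes, and a gene was called at an adjusted p under 0.05. Of the 39 Hox genes 31 had enough counts to be tested, and 3 of these 31 (9.68%) were called: Hoxc6 lower, Hoxc12 and Hoxa4 higher. The background was higher, with 39.5% of all tested genes called (20.5% higher and 19% lower), and 33.3% among the 9105 tested genes whose mean CPM lay in the range of the tested Hox genes (0.433 to 48.9 CPM). The difference between these shares was not tested.

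Depth matters for such counts, so the shares were also set side by side by level. Among genes under 2 CPM, 1 of 12 Hox genes and 12.5% of all tested genes in that range were called. Between 2 and 10 CPM it was 2 of 11 Hox genes and 27.7% of all genes. From 10 CPM up to the level of Hoxc10 it was 0 of 8 Hox genes and 43.5% of all genes, with a median standard error of 0.076 for the Hox genes and 0.065 for all genes on the log2 scale. The 8 were Hoxa3, Hoxa7, Hoxa9, Hoxa10, Hoxb9, Hoxc10, Hoxc11 and Hoxc13. None of them had an unadjusted p under 0.05 in the main edgeR fit or was called by DESeq2 or limma-voom. With edgeR on library totals only, the unadjusted p was 0.0307 for Hoxc13 and 0.0386 for Hoxc10 (adjusted p = 0.0716 and 0.0862). Without control replicate 1 it was 0.0429 for Hoxa3 by edgeR (adjusted p = 0.104). In the main fit only 4 of the 31 tested Hox genes had an unadjusted p under 0.05, the 3 called genes and Hoxc8.

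**Figure D2:**
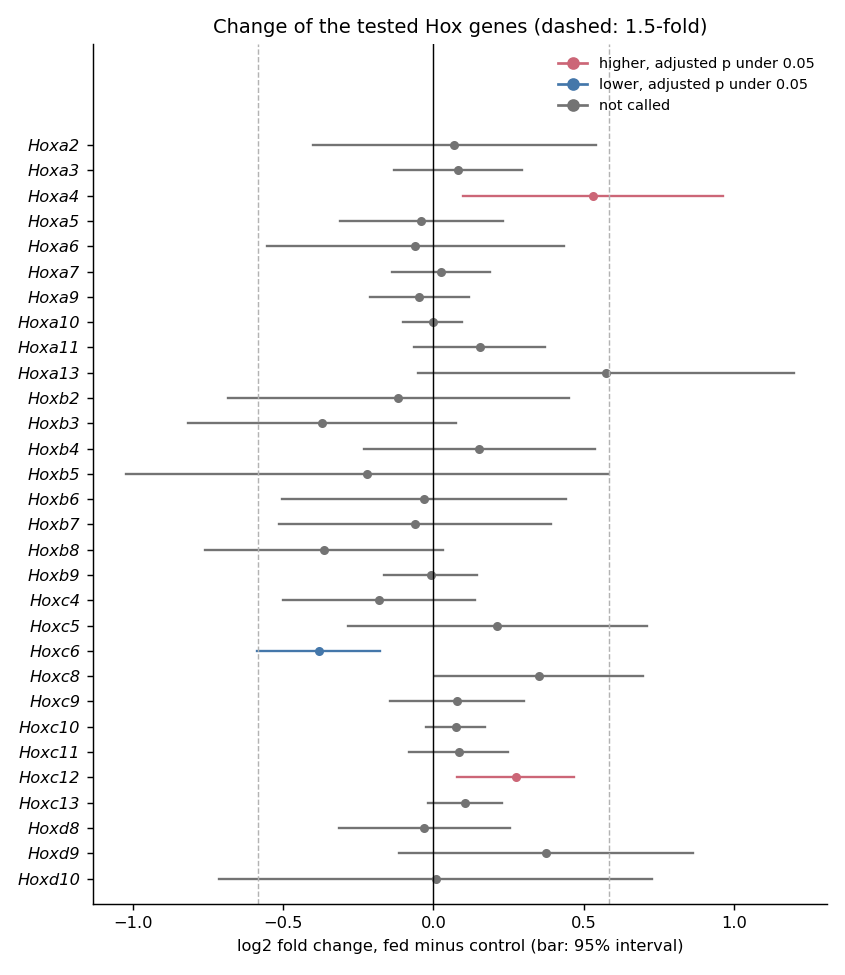
Log2 fold change of the 30 tested Hox genes of groups 2 to 13, fed minus control (x axis), with its 95% interval as a bar, listed by cluster and number. Hoxc6 is to the left of 0, Hoxa4 and Hoxc12 are to the right, the other 27 were not called, and 19 of the 30 intervals lie inside the dashed lines at 1.5-fold.

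The intervals say how large a change could have been missed. The 95% interval of the fold change stayed within 1.25-fold in either direction for 11 of the 31 tested genes, within 1.5-fold for 20 and within 2-fold for 29. The exceptions at 2-fold were Hoxa13 and Hoxb5, which had few counts. Hoxa10 was narrowly bounded: 43.3, 45.0 and 42.7 CPM in control and 43.6, 43.7 and 43.5 in fed libraries, that is -0.002 ± 0.047 on the log2 scale (SE, edgeR adjusted p = 0.976), with an interval of -0.10 to 0.10. Its sign changes between settings. Hoxb9 was similarly placed at -0.01 ± 0.074 (adjusted p = 0.933), and Hoxa7 and Hoxa9 at 0.03 and -0.05.

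Hoxc10 and Hoxc13 were slightly above control in each fed library without being called. For Hoxc10 the log2 fold change was 0.07 ± 0.047 (adjusted p = 0.223). For Hoxc13 the control libraries had 23.1, 22.4 and 23.3 CPM and the fed libraries 24.7, 24.3 and 25.02, a difference on the log2 scale of 0.11 ± 0.059 (adjusted p = 0.165). In all, control and fed values did not overlap for 7 of the 31 tested Hox genes (22.6%), against 49.1% of all tested genes and 43.9% of those in the same CPM range. The 7 were Hoxa4, Hoxc10, Hoxc12 and Hoxc13, higher, and Hoxb3, Hoxb8 and Hoxc6, lower.

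The summed level of the 39 genes was 258, 256 and 258 CPM in control (replicates 1, 2 and 3) and 263, 263 and 264 CPM in fed libraries. As raw counts per 1000000 of the unscaled library totals it was 254, 253 and 257 against 265, 266 and 268. The fed libraries were thus a little higher on both scales. No test was made on this sum.

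The homeobox, the stretch of DNA that encodes the homeodomain, shows how far the paralogues of group 10 can be told apart in sequencing. Each is 180 bases long and is read here from GENCODE M21 transcripts on GRCm38, 5′ to 3′ on the gene's strand, in lower case, with capitals in Hoxa10 and Hoxd10 where the base differs from Hoxc10. The positions are chr15:102970848-102971027 (plus) for Hoxc10, chr6:52232554-52232733 (minus) for Hoxa10 and chr2:74694141-74694320 (plus) for Hoxd10.

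Hoxc10: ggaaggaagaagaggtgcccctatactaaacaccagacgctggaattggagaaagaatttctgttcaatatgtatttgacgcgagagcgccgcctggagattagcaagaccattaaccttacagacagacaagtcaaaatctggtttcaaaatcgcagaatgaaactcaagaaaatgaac

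Hoxa10: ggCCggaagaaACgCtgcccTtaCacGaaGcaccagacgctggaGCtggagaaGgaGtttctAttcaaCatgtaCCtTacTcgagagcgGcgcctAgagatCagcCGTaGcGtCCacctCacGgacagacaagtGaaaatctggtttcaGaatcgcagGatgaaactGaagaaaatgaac

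Hoxd10: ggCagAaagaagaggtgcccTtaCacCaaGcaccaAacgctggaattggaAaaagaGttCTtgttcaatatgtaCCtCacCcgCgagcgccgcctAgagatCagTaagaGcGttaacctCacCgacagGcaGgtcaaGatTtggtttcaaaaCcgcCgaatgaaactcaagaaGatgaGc

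Hoxa10 differs from Hoxc10 at 35 of 180 bases, with a longest identical run of 14, and Hoxd10 differs at 31, with a longest run of 16. Across all 741 pairs of the 39 homeoboxes the identity lay between 46.1% and 93.9%. The longest stretch shared exactly by whole transcripts of Hox genes from different clusters was 52 bases, between Hoxa6 and Hoxb4. How the authors treated reads that match several genes is not given in the sources used here, and the counts of Hoxa6, Hoxb4 and other pairs with long shared stretches, such as Hoxb9 and Hoxc9 (50 bases), are the less certain for it.

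Hoxc6 was the Hox gene with the clearest change. Hoxc6 (chromosome 15, 102998257 to 103011881), which takes part in patterning the trunk, had 9.31, 11.6 and 11.2 CPM in control and 7.98, 8.19 and 8.46 CPM in fed libraries. All fed libraries were below all control libraries. The level fell from 10.7 ± 1.23 to 8.21 ± 0.239 CPM (SD, n = 3). On the log2 scale the difference was -0.38 ± 0.098 (SE, edgeR adjusted p = 0.00388), with a 95% interval of -0.59 to -0.18. In bulk RNA, fewer cells of a kind and less RNA per cell cannot be told apart. The fall was called under each of the 14 alternatives run, with an adjusted p between 0.000679 and 0.0343, the highest without control replicate 2.

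The fall of Hoxc6 can also be read against Hoxc10, the highest gene of its cluster, without any scaling between libraries, a ratio chosen after the values were seen. For each 100 counts of Hoxc10 there were 20.41, 23.95 and 23.05 counts of Hoxc6 in control and 16.23, 15.95 and 16.98 in fed libraries. Hoxc6 made up 8.29%, 9.99% and 9.52% of all c cluster counts in control and 6.54%, 6.84% and 7.06% in fed libraries. Both ratios were lower in all 3 fed libraries than in any control library. Hoxc10 itself had higher CPM in every fed library, which lowers both.

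The paralogues of Hoxc6 were not called. Hoxa6 had 1.16 to 1.76 CPM in control and 1.06 to 1.64 in fed libraries (log2 fold change -0.06 ± 0.24, adjusted p = 0.861), and Hoxb6 1.32 to 1.84 and 1.24 to 1.88 (-0.03 ± 0.23, adjusted p = 0.924). Their intervals, -0.55 to 0.43 and -0.51 to 0.44, both include the change of Hoxc6, so a fall of the same size was not excluded for either. The homeoboxes of Hoxc6 and Hoxb6 are given here to show how far they differ. Capitals mark bases of Hoxb6 (chr11:96300689-96300868, plus) that differ from Hoxc6 (chr15:103010754-103010933, plus).

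Hoxc6: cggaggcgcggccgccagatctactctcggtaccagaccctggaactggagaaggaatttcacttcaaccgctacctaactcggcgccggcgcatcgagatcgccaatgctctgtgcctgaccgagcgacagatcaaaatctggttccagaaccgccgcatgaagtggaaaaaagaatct

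Hoxb6: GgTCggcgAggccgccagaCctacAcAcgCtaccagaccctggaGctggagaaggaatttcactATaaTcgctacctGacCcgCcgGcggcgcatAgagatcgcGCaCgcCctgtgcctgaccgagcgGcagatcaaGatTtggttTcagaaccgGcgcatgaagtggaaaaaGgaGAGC

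Hoxb6 differs from Hoxc6 at 31 bases, and the longest run identical to Hoxc6 is 19 bases. No exon of Hoxc6 overlaps an exon of another annotated gene.

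Hoxc12 and Hoxa4 were called higher, with less certainty. Hoxc12 (chromosome 15, 102936757 to 102938609), a gene at the tail end of the c cluster, had 7.46, 8.08 and 8.27 CPM in control and 9.96, 9.66 and 9.16 in fed libraries, without overlap. On the log2 scale it rose by 0.27 ± 0.093 (SE, adjusted p = 0.0239). Leaving out control replicate 1 ended the call (adjusted p = 0.096), as did leaving out fed replicate 1 (0.0754) or fed replicate 2 (0.0655) and the use of DESeq2 (0.131). Per 100 counts of Hoxc10 there were 16.35, 16.65 and 16.99 counts of Hoxc12 in control and 20.26, 18.82 and 18.39 in fed libraries.

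Hoxa4 (chromosome 6, 52189671 to 52191753), which helps to pattern the neck and chest, was low, with 40, 31 and 21 counts in control and 44, 49 and 46 in fed libraries. In CPM this was 1.85, 1.46 and 1.11 against 2.18, 2.25 and 2.03, again without overlap, and the difference on the log2 scale was 0.53 ± 0.21 (SE, adjusted p = 0.0473). The control libraries spread more than the fed libraries. Leaving out any single library other than control replicate 1 ended the call, with adjusted p between 0.0677 and 0.184, as did DESeq2 (0.196), no filter on low counts (0.0552) and no robust estimation (0.0523). Of the exon bases of Hoxa4, 16% lie opposite an annotated gene on the other strand, and whether the counting used strand is not given in the sources used here.

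**Figure D3:**
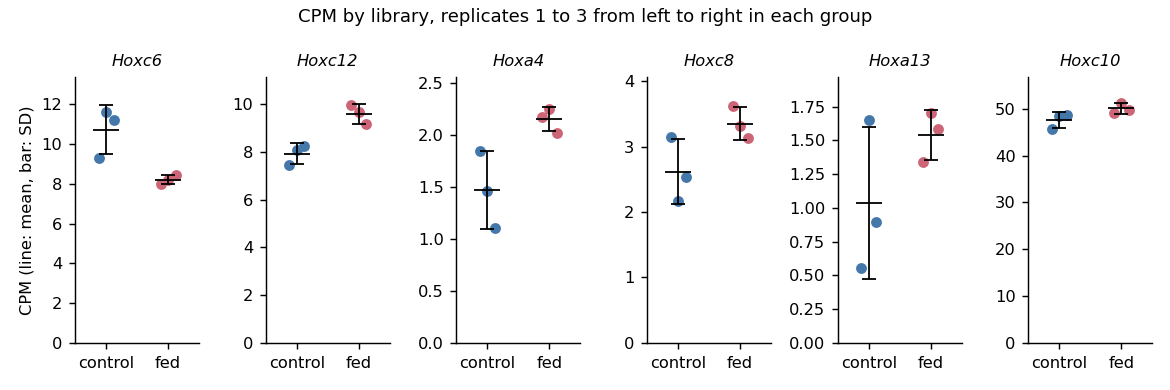
CPM of 6 Hox genes by library (y axis starts at 0 and differs between panels), control in blue and fed in red, with the mean as a line and the SD as a bar (n = 3). Hoxc6 is lower and Hoxc12 and Hoxa4 are higher in every fed library, Hoxc8 and Hoxa13 overlap between groups, and Hoxc10 is shown as the highest Hox gene.

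Hoxc8 and Hoxa13 fell short of a call. Hoxc8, a gene of the trunk, had 3.15, 2.17 and 2.53 CPM in control and 3.62, 3.31 and 3.13 in fed libraries, a log2 difference of 0.35 ± 0.17 (adjusted p = 0.0997), and was called higher only without control replicate 1 (adjusted p = 0.0334), while without control replicate 2 the difference was 0.23 (adjusted p = 0.350). Hoxa13 had 0.556, 1.65 and 0.895 CPM in control and 1.34, 1.7 and 1.59 in fed libraries, and control replicate 2 lay inside the fed range. Its log2 fold change of 0.57 ± 0.30 (adjusted p = 0.139) was the largest in size among the tested Hox genes, but it rested on single control libraries: it was 1.1 (adjusted p = 0.00943) without control replicate 2 and 0.26 (adjusted p = 0.511) without control replicate 1. Hoxd9, a gene of the limb, had 0.37 ± 0.24 (adjusted p = 0.221), and 0.20 (adjusted p = 0.603) without fed replicate 3.

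Most values of the c cluster were positive. The log2 fold changes of Hoxc8, Hoxc9, Hoxc10, Hoxc11, Hoxc12 and Hoxc13 were 0.35, 0.08, 0.07, 0.08, 0.27 and 0.11, and those of Hoxc6 and Hoxc4 were -0.38 and -0.18, with Hoxc5 at 0.21. Of these 9 only Hoxc6 and Hoxc12 were called. The split of 7 positive and 2 negative values held under every alternative other than leaving out fed replicate 1, where Hoxc9 turned negative. Hoxc5 and Hoxc10 share exon bases on the same strand, 5.37% of those of Hoxc5 and 8.70% of those of Hoxc10.

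The b cluster had 1 positive and 7 negative values among 8 tested genes, with a median of -0.09. None was called (main edgeR fit, with none at an unadjusted p under 0.05, and none called by DESeq2 or limma-voom). Without fed replicate 3 the unadjusted p of Hoxb8 was 0.0475 by edgeR (adjusted p = 0.113). Hoxb8 had 2.36, 2.03 and 2.11 CPM in control and 1.44, 1.70 and 1.89 in fed libraries (-0.36 ± 0.19, adjusted p = 0.139). Hoxb3 had 1.99, 1.65 and 1.63 against 1.49, 1.1 and 1.5 (-0.37 ± 0.21, adjusted p = 0.180), and its difference was -0.24 without fed replicate 2. Both had lower values in every fed library without being called. Hoxb7 had 1.61 to 2.79 CPM in control and 1.78 to 2.64 in fed libraries, and Hoxb2 0.690 to 0.991 in fed libraries. The signs of this cluster were not stable: without fed replicate 2 they were 5 positive and 3 negative. The a cluster had 6 positive and 5 negative values (median 0.03, 9 and 2 without control replicate 1), and the d cluster 2 and 1. Among the uncalled genes not described so far, Hoxb5 had the lowest value, -0.22 ± 0.38 (adjusted p = 0.682), and Hoxa11 and Hoxb4 the highest, at 0.15 each. Over all 31 tested Hox genes the median was 0.007, and over all 13092 genes it was -0.007.

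The composition by paralogue group was similar in both groups of libraries, with small offsets in some paralogue groups. Group 10 held 35.0% to 36.8% of the summed level per kilobase in control and 35.5% to 36.4% in fed libraries, and group 9 held 12.0% to 12.8% and 11.8% to 12.6%. Group 6 held 6.14% to 6.995% in control and 4.88% to 5.54% in fed libraries, group 12 held 6.77% to 7.40% and 7.97% to 8.71%, and group 13 held 9% to 9.12% and 9.48% to 9.69%. Group 11 held 8.12% to 8.48% and 8.56% to 8.75%. In groups 6, 11, 12 and 13 the ranges of control and fed libraries did not overlap. Groups 4 to 8 together held 21.3% to 23.6% in control and 20.5% to 21.0% in fed libraries, also without overlap. Among single genes, control and fed values did not overlap for 49.1% of all those tested. Groups 9 to 13 together held 71.2%, 74.1% and 73.8% in control and 75.0%, 74.8% and 74.5% in fed libraries. These did not overlap either, and control replicate 1 was lowest. Shares sum to 100% within a library, so a higher share of some groups lowers the others. The share of group 12 is that of Hoxc12, as Hoxd12 had no count. In group 6, Hoxc6 had means of 4.45 (control) and 3.41 (fed) CPM per kilobase, Hoxa6 1.69 and 1.64, and Hoxb6 0.78 and 0.77. The offsets of groups 6 and 12 thus restate the called genes Hoxc6 and Hoxc12. Of the 10 highest genes per kilobase, 9 were shared between control and fed cells. By cluster the shares in fed libraries were 54.3% to 55.8% (c), 31.8% to 33.0% (a), 10.1% to 11.2% (b) and 2.18% to 2.47% (d), and each range overlapped that of control.

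**Figure D4:**
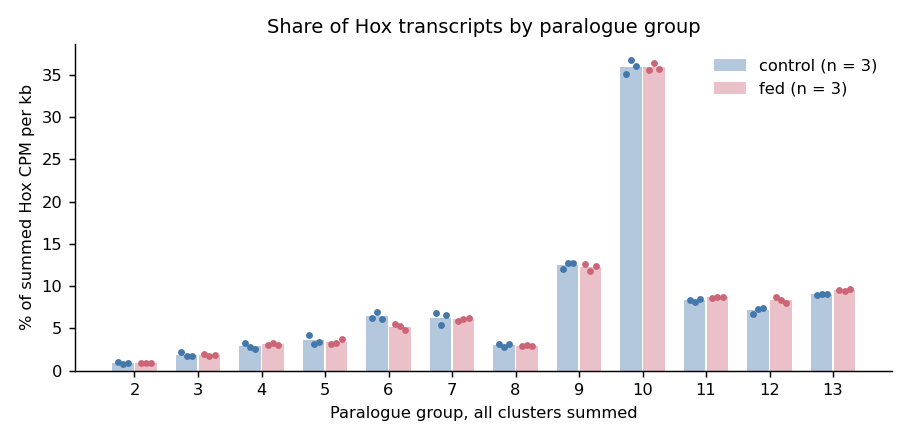
Share of the summed Hox level per kilobase (y axis, percent) held by each paralogue group from 2 to 13, all clusters summed (x axis). Bars are means of 3 libraries and points are libraries, with control in blue and fed in red. Group 10 is near 36% in both, and groups 6 and 12, which hold the called genes Hoxc6 and Hoxc12, show the clearest offsets.

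Between the outermost Hox genes of the 4 clusters the table held 33 other features, mostly antisense and small RNA, and 18 of them had no count. Only 4 had enough counts to be tested, and none was called (edgeR, none at an unadjusted p under 0.05). Hoxa11os, the antisense RNA of Hoxa11, had 41, 29 and 29 counts in control and 28, 45 and 47 in fed libraries (log2 fold change 0.21 ± 0.22, adjusted p = 0.473). Hotairm1, a long non-coding RNA of the a cluster, had 9 to 18 counts in each library (-0.39 ± 0.31, adjusted p = 0.343), and Hoxaas2 and Hoxb3os had adjusted p of 0.764 and 0.701. Of Hoxa11, 35.0% of the exon bases lie opposite Hoxa11os, and of Hoxb3, 52.9% opposite Hoxb3os. Hotair, a long non-coding RNA of the c cluster, was under the filter, with 8, 16 and 11 counts in control and 6, 5 and 6 in fed libraries. Of 7 microRNA genes 5 had no count. A library of polyadenylated RNA does not measure mature microRNA.

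Hox proteins bind DNA together with cofactors of the Pbx, Meis and Pknox families. Of 9 cofactors 8 were tested, 1 rose and 2 fell (median -0.08). Over all tested genes 20.5% were called higher and 19% lower. Meis2 fell from 44.6 ± 2.49 to 37.6 ± 0.2 CPM (-0.24 ± 0.052, adjusted p = 0.000798). Pbx3 rose from 19.3 ± 0.906 to 22.4 ± 1.24 CPM. Meis1 had 7.94 ± 1.5 and 6.95 ± 0.463 CPM (adjusted p = 0.222).

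Hox clusters are held silent by Polycomb complexes and kept active by trithorax proteins. For each list named here, the shares over all tested genes were 20.5% called higher and 19% called lower. Of 11 genes of Polycomb complex 2, 6 rose and 3 fell. Ezh2, the methyltransferase that marks H3K27, rose by 0.55 on the log2 scale (adjusted p = 1.1e-07), Phf19 by 0.78 and Rbbp4 by 0.23. Of 17 genes of Polycomb complex 1, 2 rose (Phc2 by 0.29, Pcgf5 by 0.33) and 2 fell. In the list of trithorax genes and H3K27 demethylases, 3 of 14 rose and 5 fell. Kdm6b, which removes the Polycomb mark, fell by 0.74 (adjusted p = 1.57e-07), and Wdr5 and Dpy30, subunits of the trithorax complexes, rose by 0.37 and 0.54.

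Retinoic acid is a classical inducer of front-end Hox genes. Of 17 genes of retinoid supply and receptors 12 were tested, 1 rose and 4 fell, where 20.5% of all tested genes rose and 19% fell. Dhrs3 and Aldh1a2, enzymes of retinoid metabolism, fell by 0.52 and 0.49 on the log2 scale. Aldh1a3, which like Aldh1a2 makes retinoic acid, rose by 0.47 (adjusted p = 1.26e-06). Of 5 regulators of the body axis 2 were tested, and Nr6a1 fell by 0.61 (adjusted p = 0.00984), while Cdx2 and Cdx4 had no count.

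Other transcription factors of limb position were read for comparison. Pitx1 and Tbx4, factors of the hind limb, had 10.4 ± 0.346 and 6.26 ± 0.526 CPM in control cells, while Tbx5, the factor of the forelimb, had 0 to 8 counts per library and was not tested. Pitx1 rose to 13.2 ± 0.817 CPM in fed cells (log2 fold change 0.35 ± 0.081, adjusted p = 0.0018), and Tbx4 had 7.42 ± 0.667 CPM there (adjusted p = 0.0937). Of 26 such factors 20 were tested, 4 rose and 1 fell (median 0.19), with Prrx2 higher by 0.33 (adjusted p = 1.48e-06) and Tbx18 lower, at -0.17 (adjusted p = 0.000807). No list was tested as a set, and the share of all genes called was 39.5%.

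The libraries had the markers of marrow stroma. All 11 stromal markers were tested, with a summed level of 36163 to 37629 CPM in control and 31739 to 33655 CPM in fed libraries. Most of this sum came from Col1a1 and Col1a2, with control means of 19408 and 12550 CPM. Of the 11, 6 fell and none rose, where 19% of all tested genes were called lower. Of 12 thymocyte markers only Lck had enough counts to be tested, the sum was 0.417 to 0.895 CPM in control and 0.690 to 1.45 CPM in fed libraries, and Cd3g, Rag2 and Ptcra had no count in any library. Lck had 8, 11 and 15 counts in control and 7, 4 and 12 in fed libraries. Rag1 had 0, 2 and 1 against 7, 6 and 12 counts, Ptprc 0, 1 and 0 against 5, 2 and 3, Cd8b1 0 against 3, 2 and 2, and Cd8a 0 against 1, 1 and 3. These last 4 markers were higher in every fed library than in any control library, at few counts and without a test. Themis went the other way in CPM, with 1, 1 and 1 counts in control and 0, 0 and 1 in fed libraries. Cd3e, Cd3d and Cd4 overlapped between groups. Over all tested genes, 49.1% did not overlap. Of 10 macrophage markers 3 were tested and 2 rose (Lyz2 and Cd14), where 20.5% of all tested genes were called higher. The other, Csf1r, had 5.78 ± 0.292 CPM in control and 5.40 ± 0.778 in fed libraries (edgeR adjusted p = 0.596). The sum of the 10 was 13.1 to 14.2 CPM in control and 19.2 to 20.7 CPM in fed libraries. C1qa, C1qb, C1qc, Adgre1 and Itgam were at 0 in every control library and at most 0.389 CPM on average in fed libraries. Fcgr1 had no count in any library, and Mrc1 overlapped between groups. Of 6 endothelial markers only Tek was tested, and Cdh5, Emcn and Cldn5 had no count. The part of other cells in the changes of Hoxc6, Hoxc12 and Hoxa4 was not tested.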

How the data were processed

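Polyadenylated RNA of 6 libraries was sequenced from a stranded preparation, per the labels' protocols. The authors deposited raw counts per gene symbol. Per the submitters' processing notes they used Trimmomatic 0.36, STAR 2.6.0c, featureCounts of Subread 1.6.1, MultiQC 1.5 and GRCm38. Not given in the sources used here are the annotation, the strand setting and the handling of multi-mapping reads.

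Tests used edgeR 4.0.16 under R 4.3.3 (filterByExpr defaults, TMM, robust quasi-likelihood F-test, no replicate block), on all genes, with Benjamini-Hochberg adjustment over the 13092 tested. CPM use the TMM-scaled totals of the filtered genes. Standard errors were derived from the F statistic, and 95% intervals from the t quantile at each gene's degrees of freedom. The script was tested on simulated data. Exon lengths, overlaps and homeoboxes came from GENCODE M21 (GRCm38), and all 39 symbols matched. Homeoboxes were found by a conserved homeodomain motif in the translated transcripts. Promoter windows came from RefSeq.

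Any tested Hox gene could be named. Of each other list up to 3 called genes with the smallest adjusted p are named, with Meis1, Meis2, Pitx1, Tbx4 and Tbx5. Some items are not reported here. The members and lists were chosen with earlier results of these data known. Replicates of a group differed by more than sampling noise (chi-square per degree of freedom 2.65 to 6.14), so each was kept. Alternatives were DESeq2 1.42.0, limma-voom (limma 3.58.1), RLE scaling, no scaling beyond totals, no filter or 1 CPM in 3 libraries, no robust estimation, the replicate block, and each library left out.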

Additional observations from a re-analysis of the deposited data

How the results depend on the processing

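The count of Hox genes called lower was 1 under every alternative. The count called higher, 2 in the report, was 1 without a filter on low counts, 1 without robust estimation and 0 by DESeq2 (1 at an unadjusted p under 0.05), and 0 to 2 when each library was left out in turn (0 without fed replicate 1 or 2, where 3 and 1 had an unadjusted p under 0.05 by edgeR). The 2 without control replicate 1 were Hoxa4 and Hoxc8, and the 2 without control replicate 2 were Hoxc12 and Hoxa13. At 5 CPM in each control library, 13 Hox genes were expressed in place of 25, and 29 had at least 10 counts in each.

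The labels state no pairing of same-numbered libraries of both groups. The correlations of their deviations were weak, at 0.10, 0.022 and 0.13, against -0.12 to 0.027 for pairs with different numbers. Each fed library correlated best with the control library of its own number. Control replicate 2 was slightly closer to fed replicate 1 (0.027). Whether the libraries were paired was not tested. With the replicate block 2 Hox genes were called higher and 1 lower. Signs changed only for genes that were not called, 13 in all and never past 0.20 in size, and the cause was not tested. With library totals only, Hoxd8, Hoxa10 and Hoxb9 turned to 0.0011, 0.030 and 0.022. Without a filter Hoxa10 and Hoxb9 turned to 0.0072 and 0.00020, by DESeq2 Hoxa10 to 0.0042, and with the block Hoxd10 to -0.0085. With each library left out, the log2 fold change ranged from -0.20 to 0.29 for Hoxd10, -0.12 to 0.059 for Hoxd8, -0.053 to 0.20 for Hoxa2, -0.13 to 0.11 for Hoxa5, -0.20 to 0.13 for Hoxa6, -0.049 to 0.10 for Hoxa7, -0.090 to 0.017 for Hoxa9, -0.016 to 0.020 for Hoxa10, -0.089 to 0.038 for Hoxb9, -0.27 to 0.13 for Hoxb7, -0.21 to 0.12 for Hoxb6, -0.24 to 0.0058 for Hoxb2 and -0.033 to 0.14 for Hoxc9. Of 430 values recomputed, 382 kept their sign and their side of the threshold. Depth limits the genes under 2 CPM most.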
